A study of Homo sapiens with 12 samples.

Results

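The 10 growth factor genes of the epidermal growth factor (EGF) family (AREG, EREG, HBEGF, TGFA and NRG1), the fibroblast growth factor (FGF) family (FGF1, FGF2 and FGF5), VEGFC and HGF were described in the glioblastoma cell lines U87 and U118. The members were chosen by symbol, and all 10 were found among the 58174 genes of each table. mRNA sequencing compared temozolomide (TMZ) sensitive cells with TMZ resistant cells of each line, in 4 groups of 3 libraries (12 in all). Resistant cells of U87 (U-87 MG) and of U118 (U-118 MG) were induced with TMZ, a DNA-alkylating drug, at 50 µM, and no drug is named for the sensitive cells of either line. The study's methods name the sequenced cells control and aggregation cells, not sensitive and resistant. Control cells there are sorted CD133-CD15- cells grown with serum and BMP2, and aggregation cells arose from the few survivors of a TMZ treatment lasting weeks. The sensitive and resistant labels are taken here as these groups, which no source states. No source says that the 3 libraries of a group came from separate cultures, so the p-values measure the spread between libraries, which may be technical.

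EGF-family ligands are made as membrane-bound precursors, are cut free by metalloproteases of the ADAM family, and bind EGFR and its ERBB relatives. FGFs bind heparan sulfate chains on the cell surface together with FGF receptors, VEGFC acts on VEGF receptors of lymphatic and blood vessel cells, and HGF, made as an inactive precursor, activates the receptor MET after cleavage. All of these receptors are tyrosine kinases that signal through the RAS and ERK cascade, and EGFR and MET are well known drivers of glioblastoma growth.

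Expression is given as TPM, a transcript level scaled for transcript length and for the library total. The tables of the lines were deposited separately, so levels are set side by side across lines with no test. A change is the difference of log2(TPM + 1), resistant minus sensitive, which understates the change of low genes. A gene was called when the limma adjusted p was under 0.05 and the change was at least 1 in size, and "rose" and "fell" are used only of called genes. In bulk RNA, fewer cells of a type that expresses a gene and less RNA per cell cannot be told apart.

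The libraries labelled U118 resistant stood apart from their line. Of 77 genes at 20 TPM or more in all U118 sensitive libraries and under 1 TPM in all U87 sensitive libraries, 19 to 27 reached 1 TPM in the libraries labelled U118 resistant. Of 50 genes with the opposite pattern, 42 to 46 did. Across 16382 genes, which are not independent replicates, the Spearman correlation of these libraries was 0.808 to 0.839 with U118 sensitive and 0.895 to 0.909 with U87 sensitive libraries. With U87 resistant libraries it was 0.907 to 0.913. Between U87 sensitive and U87 resistant libraries the correlation was 0.944 to 0.952. Every U118 change below therefore compares the libraries under these labels, and whether they come from the same cells was not tested. Replicate 1 of U118 resistant stood apart again, with 15193 genes at 1 TPM against 13270 and 13545, and 13.2% of its TPM from mitochondrially encoded genes against 29.9% and 26.1%. That share was 12.9% to 16.9% in U87 sensitive, 22.2% to 23.7% in U87 resistant and 7.42% to 19.7% in U118 sensitive libraries. Of the markers of glioma lines, VIM (4425 to 7149 TPM) and CD44 (311 to 868 TPM) were high in all 12 libraries. NES was at 5.76 to 24.1 TPM, and the glial markers GFAP (at most 0.693 TPM) and S100B (at most 0.281 TPM) were near 0. Other markers were not all near 0. OLIG2 reached 1 TPM in at least 3 libraries of U87, and CHI3L1 did so in both lines. SOX2, a marker of stemness in the study, did not reach 1 TPM in at least 3 of the 12 libraries.

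**Figure D1:**
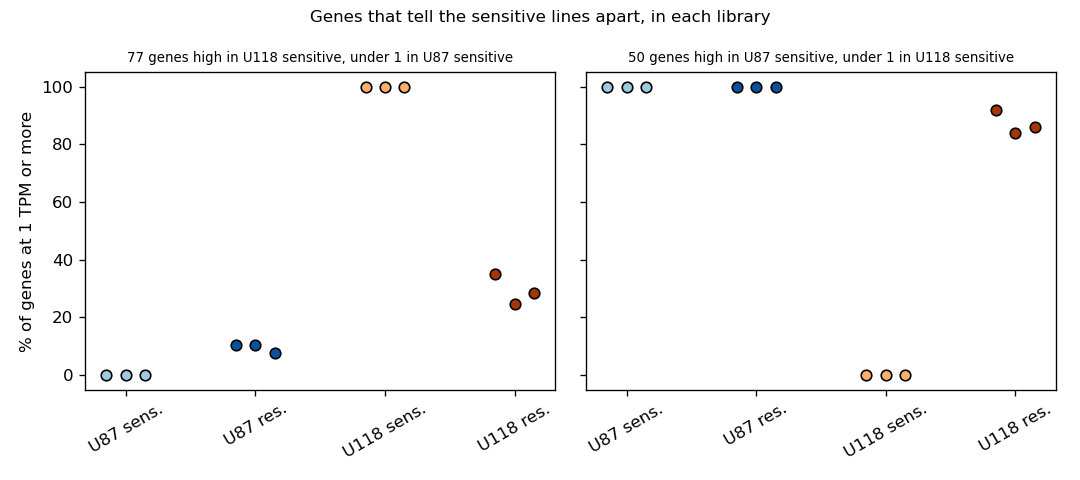
Share of line-distinguishing genes at 1 TPM or more in each library (points, 3 per group; y axis in percent). Left, 77 genes high in U118 sensitive libraries, and right, 50 genes high in U87 sensitive libraries. Because the sensitive libraries chose these genes they sit at 0 or at the top, and the libraries labelled U118 resistant hold 19 to 27 of the 77 and 42 to 46 of the 50.

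The sequences before the starts of 4 members are shown because these genes had the calls that the comparisons turn on and their windows could be cut free of annotated exons. They were taken from RefSeq (GRCh38.p14), in which 9 of the 10 members matched, and are written 5′ to 3′ on the strand of the gene, up to the base before the first RefSeq start of the gene or, for EREG, before its annotated first exon. The EREG window lies at chr4:74364895-74365142 (plus strand, 248 bases), FGF5 at chr4:80266338-80266587 (plus strand), VEGFC at chr4:176792923-176793172 (minus strand) and FGF1 at chr5:142698071-142698320 (minus strand), the last 3 with 250 bases. Capitals mark GCGTG, a core motif of hypoxia-inducible factors, on either strand (CACGC on the reverse).

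EREG: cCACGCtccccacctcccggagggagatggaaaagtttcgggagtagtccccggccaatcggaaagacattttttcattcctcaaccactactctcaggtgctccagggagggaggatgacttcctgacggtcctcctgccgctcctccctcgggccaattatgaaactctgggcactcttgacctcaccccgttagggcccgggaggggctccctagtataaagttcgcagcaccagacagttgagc

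FGF5: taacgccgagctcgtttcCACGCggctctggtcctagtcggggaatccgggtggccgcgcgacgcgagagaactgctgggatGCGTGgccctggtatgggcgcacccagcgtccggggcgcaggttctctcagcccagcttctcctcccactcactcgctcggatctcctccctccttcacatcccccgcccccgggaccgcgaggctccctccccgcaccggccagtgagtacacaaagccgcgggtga

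VEGFC: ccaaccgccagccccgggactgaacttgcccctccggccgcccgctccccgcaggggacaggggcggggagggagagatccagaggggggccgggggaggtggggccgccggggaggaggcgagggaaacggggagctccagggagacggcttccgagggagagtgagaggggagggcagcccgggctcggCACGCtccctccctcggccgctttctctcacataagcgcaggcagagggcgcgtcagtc

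FGF1: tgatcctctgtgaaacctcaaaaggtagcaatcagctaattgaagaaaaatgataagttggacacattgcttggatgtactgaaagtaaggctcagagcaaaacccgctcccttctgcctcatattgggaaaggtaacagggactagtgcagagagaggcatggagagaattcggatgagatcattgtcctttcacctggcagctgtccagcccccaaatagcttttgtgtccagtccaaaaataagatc

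The windows held 1 match in EREG, 2 in FGF5, 1 in VEGFC and 0 in FGF1, and 32.2% of all 34788 RefSeq windows of the same length held at least 1. The other core, ACGTG (18.5% of windows), the AP-1 motif TGANTCA (6.59%) and the cyclic AMP response element TGACGTCA (1.64%), searched on both strands, were in none of the 4. FGF1 and FGF5 have further RefSeq starts, whose windows overlap annotated exons and are not printed. Of these, 1 window of FGF1 holds TGAGTCA, a match to the AP-1 motif, and ACGTG, and 1 window of FGF5 holds GCGTG. These matches are letters in a window and were not tested as binding sites. The GC content ran from 44.8% in FGF1 to 74.0% in VEGFC.

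Of the 10 members, 9 reached 1 TPM in at least 3 libraries of each line and were tested. In U87 cells, 1 member rose (HGF) and 1 fell (FGF1), beside 3.03% of all 13845 genes that rose and 7.79% that fell. HGF passed the filter in U87 mainly through the resistant libraries, where it is higher, so its rise adds little to the count. In U118 cells, 2 members rose (EREG and TGFA) and 3 fell (FGF2, FGF5 and VEGFC). TGFA passed the filter there only through the resistant libraries, where it is high, so its call had to be a rise and is no support for the count. These counts stand beside 8.64% of 15527 genes that rose and 26.6% that fell. All genes tested had a median change of -0.24 (U87) and -0.52 (U118). The median of the 9 members lay 0.07 above it in U87 and -0.12 from it in U118. With median-ratio scaling, under which the all-gene median was -0.02 in U87 and -0.05 in U118, the members' counts were 1 and 1 in U87 and 2 and 2 in U118. This scaling moved the calls of all genes from 419 higher and 1078 lower to 659 and 543 in U87, and from 1341 and 4134 to 2284 and 2025 in U118. Without U118 resistant replicate 1, and over the genes of the full set, 1 member rose (TGFA) and 4 fell (FGF2, FGF5, VEGFC and HGF) in U118. In this setting 1294 of all 15527 genes rose and 5643 fell, and the all-gene median was -0.70. The sensitive and resistant libraries did not overlap for 5 members in U87 (NRG1, FGF1, FGF2, FGF5 and HGF), 1 of them higher and 4 lower in resistant cells. Of all genes, 53.4% did not overlap (13.6% higher, 39.8% lower). They did not overlap for 5 in U118 (EREG, TGFA, FGF2, FGF5 and VEGFC), 2 of them higher and 3 lower, where 58.6% of all genes did not (15.7% higher, 42.9% lower). TGFA could not overlap once it passed the filter through the resistant libraries alone, so it is no support here either. HGF in U87, which passed the filter mainly through the resistant libraries, adds little here too. With 3 libraries a group the smallest two-sided p of an exact permutation test is 0.1, so the members were judged by the fit across all genes.

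**Figure D2:**
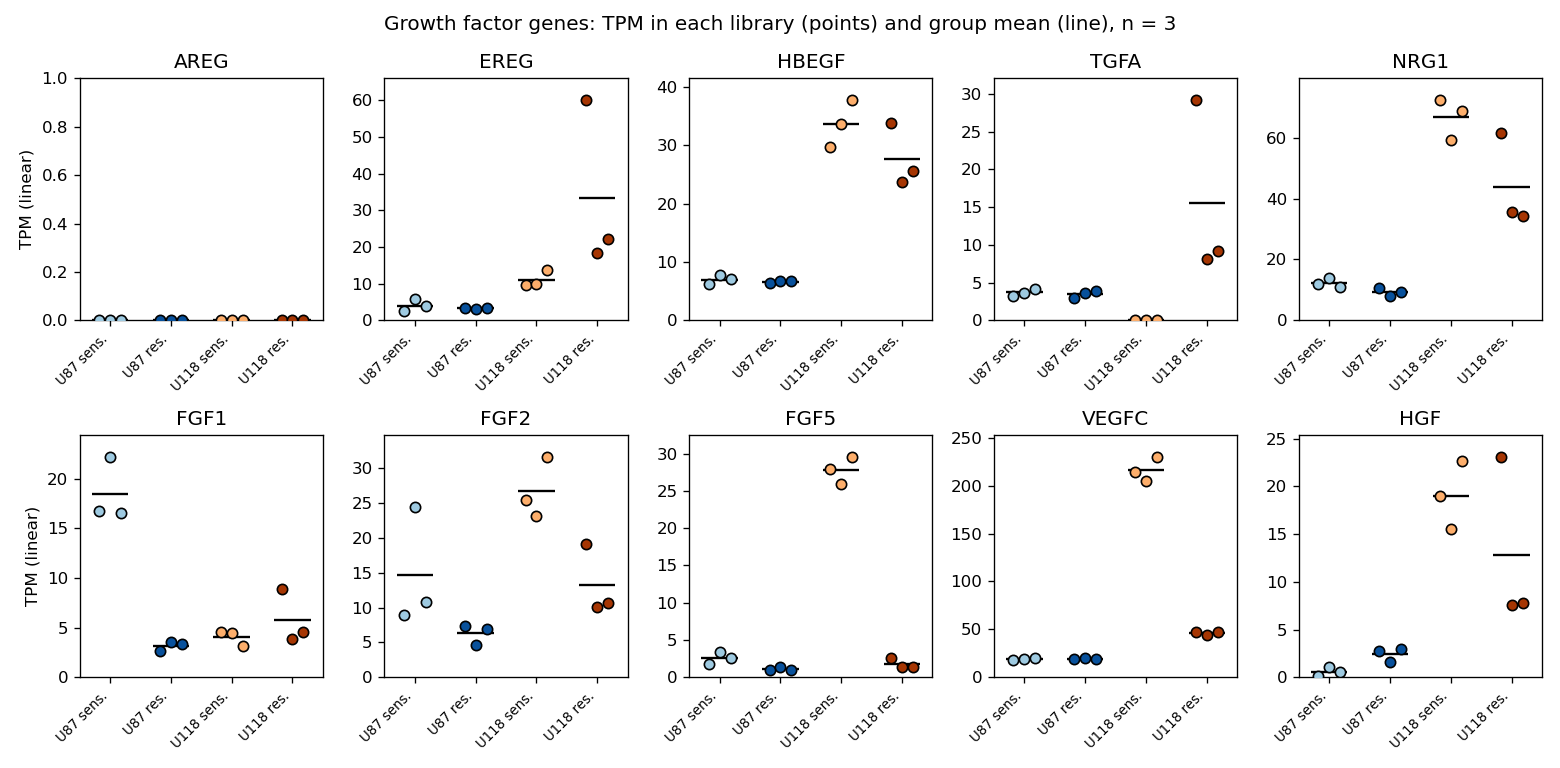
TPM of each growth factor gene (linear y axis from 0, scaled per gene) in the 3 libraries of each group (points) with the group mean (line). VEGFC and FGF5 are highest in U118 sensitive cells, FGF1 in U87 sensitive cells, and TGFA is listed at 0 in the U118 sensitive libraries and AREG in all 12.

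EREG (ENSG00000124882) encodes epiregulin, a ligand of EGFR and ERBB4, and lies on chromosome 4 (74365143 to 74388751, plus strand, GRCh38). It was at 9.49, 9.86 and 13.8 TPM in the U118 sensitive libraries and at 59.96, 18.4 and 22.1 TPM in the U118 resistant libraries. All 3 resistant libraries were higher than every sensitive library, and replicate 1 was far above the others. The change was 1.34 ± 0.41 (SE, 95% interval 0.41 to 2.27, limma adjusted p = 0.0232), so EREG rose in U118. Without U118 resistant replicate 1 the change was 0.83 (adjusted p = 0.00874), under the fold threshold, and without U118 sensitive replicate 1, 2 or 3 the adjusted p was 0.0576, 0.0692 and 0.0523. Its range over the alternatives was 0.00048 to 0.0887. In U87 the libraries were at 2.57, 5.68 and 3.75 TPM (sensitive) and 3.47, 2.93 and 3.45 TPM (resistant), which overlap, and the change was -0.18 ± 0.24 (SE, adjusted p = 0.596). Ordered by mean, the level was highest in U118 resistant, then U118 sensitive, U87 sensitive and U87 resistant, and only the last pair of neighbours overlapped.

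TGFA (ENSG00000163235), on chromosome 2 (70447280 to 70554193, minus strand), encodes transforming growth factor alpha, an EGFR ligand that glioma cells are known to make. It was listed at 0 in all 3 U118 sensitive libraries and at 29.2, 8.15 and 9.19 TPM in the U118 resistant libraries. The groups were fully apart, with replicate 1 again the highest, and the gene passed the filter on low values only through the resistant libraries. TGFA was called higher in U118 (limma adjusted p = 9.67e-05), and no fold is given against a group at 0. Without U118 resistant replicate 1 the adjusted p was 6.54e-06 over the genes of the full set, with a range of 2.57e-14 to 0.00379 over the alternatives. Since the call could only be a rise in each of these, they add no support. In U87 it was at 3.26, 3.65 and 4.21 TPM in sensitive and 2.97, 3.65 and 3.87 TPM in resistant libraries. These overlap, and the U87 change was -0.07 ± 0.16 (SE, 95% interval -0.44 to 0.31, adjusted p = 0.772). The U118 resistant libraries were above every U87 library, and the U118 sensitive libraries below them all.

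HBEGF (ENSG00000113070), on chromosome 5 (140332843 to 140346631, minus strand), encodes heparin-binding EGF-like growth factor, an EGFR and ERBB4 ligand with affinity for heparan sulfate. It was at 29.7, 33.7 and 37.7 TPM in U118 sensitive and 33.8, 23.7 and 25.5 TPM in U118 resistant libraries. The groups overlap through replicate 1 of the resistant cells, and the change was -0.29 ± 0.23 (SE, 95% interval -0.80 to 0.22, adjusted p = 0.306), with the opposite sign under median-ratio scaling (0.26). In U87 it was at 6.14, 7.74 and 7.08 TPM (sensitive) and 6.35, 6.77 and 6.70 TPM (resistant), an overlap with a change of -0.07 ± 0.14 (SE, adjusted p = 0.743). Every U118 library, resistant ones included, was above every U87 library.

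NRG1 (ENSG00000157168), on chromosome 8 (31639386 to 32767959, plus strand), encodes neuregulin 1, a ligand of ERBB3 and ERBB4. It was at 72.3, 59.3 and 69.0 TPM in U118 sensitive and 61.6, 35.6 and 34.4 TPM in U118 resistant libraries. Replicate 1 of the resistant cells lay within the sensitive range and the other two lay below it. The change was -0.64 ± 0.26 (SE, 95% interval -1.24 to -0.05, adjusted p = 0.0659). In U87 it was at 11.9, 14.0 and 10.9 TPM (sensitive) and 10.7, 7.91 and 9.39 TPM (resistant), which are apart by a narrow gap, with a change of -0.36 ± 0.16 (SE, adjusted p = 0.120). As for HBEGF, no U87 library reached the level of any U118 library.

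AREG (ENSG00000109321), which encodes amphiregulin, an EGFR ligand often made by epithelial cells, lies beside EREG on chromosome 4 (74445134 to 74455009, plus strand). It was listed at 0 in all 12 libraries. The same holds for 2004 of 19762 protein-coding genes (10.1%), and none of 73 ribosomal protein genes was listed at 0 in any library. Summed over the family, EGF-type ligands held 27.3% to 27.7% of the members' TPM in U118 sensitive and 56.2% to 64.6% in U118 resistant libraries. In U87 these shares were 30.6% to 34.2% (sensitive) and 40.5% to 42.0% (resistant). A share also depends on the other members. The summed TPM of the EGF-type ligands was 112, 103 and 120 in U118 sensitive and 184, 85.8 and 91.2 in U118 resistant libraries, higher only in replicate 1. In U87 it was 23.8, 31.0 and 25.9 (sensitive) and 23.5, 21.3 and 23.4 (resistant), lower in every resistant library.

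FGF1 (ENSG00000113578), acidic FGF, a ligand that binds all FGF receptors, lies on chromosome 5 (142592178 to 142698070, minus strand). It was at 16.7, 22.1 and 16.5 TPM in U87 sensitive and 2.61, 3.53 and 3.39 TPM in U87 resistant libraries. All 3 resistant libraries were far below all 3 sensitive libraries. FGF1 fell by 2.22 on the log2 scale (SE 0.17, 95% interval -2.63 to -1.80, limma adjusted p = 0.000198), and it was called under all alternatives run, with changes of -2.50 to -1.99. In U118 it was at 4.55, 4.45 and 3.15 TPM (sensitive) and 8.85, 3.88 and 4.56 TPM (resistant). These overlap, with replicate 1 of the resistant cells above the rest and a change of 0.36 ± 0.31 (SE, adjusted p = 0.341). The order of the means was U87 sensitive, U118 resistant, U118 sensitive and U87 resistant, and the neighbours after the first group overlapped.

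FGF2 (ENSG00000138685), basic FGF, which is widely used to grow neural and glioma stem-like cells, lies on chromosome 4 (122826708 to 122898236, plus strand). It was at 25.5, 23.1 and 31.5 TPM in U118 sensitive and 19.1, 10.1 and 10.6 TPM in U118 resistant libraries. All resistant libraries were below all sensitive libraries, and FGF2 fell by 1.002 (SE 0.28, 95% interval -1.65 to -0.36, adjusted p = 0.0170). The call did not hold under median-ratio scaling (-0.47, adjusted p = 0.0665), without mitochondrially encoded genes (-0.83), or without U118 resistant replicate 2 (-0.85), resistant replicate 3 (-0.88) or sensitive replicate 3 (-0.88), and the range of the adjusted p was 0.000648 to 0.0715. In U87 it was at 8.95, 24.4 and 10.7 TPM (sensitive) and 7.32, 4.69 and 6.90 TPM (resistant). The groups do not overlap, but replicate 2 of the sensitive cells stood far above the others. The U87 change was -0.995 ± 0.36 (SE, 95% interval -1.86 to -0.14, adjusted p = 0.0678), and without U87 sensitive replicate 1 it was -1.26 and called (adjusted p = 0.0359, with a range of 0.0353 to 0.195). NUDT6, on the opposite strand, overlaps FGF2 and averaged 5.21 to 10.1 TPM in the 4 groups. No strand setting was given, so reads of the pair cannot be told apart.

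FGF5 (ENSG00000138675), a secreted FGF known for ending the growth phase of hair, lies on chromosome 4 (80266599 to 80336680, plus strand). It was at 27.9, 25.9 and 29.5 TPM in U118 sensitive and 2.64, 1.41 and 1.39 TPM in U118 resistant libraries. The groups were widely apart. Replicate 1 of the resistant cells lay within the range of U87 sensitive cells, and the other two lay below every U87 sensitive library. FGF5 fell by 3.38 (SE 0.25, 95% interval -3.95 to -2.81, limma adjusted p = 9.71e-06) and was called under all alternatives, with changes of -3.92 to -2.93. In U87 it was at 1.77, 3.36 and 2.52 TPM (sensitive) and 0.985, 1.34 and 1.02 TPM (resistant). These do not overlap, and the change of -0.73 ± 0.20 (SE, 95% interval -1.19 to -0.26, adjusted p = 0.0251) was under the fold threshold. With a pseudocount of 0.1 it was -1.09 (adjusted p = 0.0254, range 0.0114 to 0.0860) and called. CFAP299 overlaps FGF5 on the same strand and averaged at most 0.745 TPM. Summed over the family, the FGF genes held 39.1% to 49.2% of the members' TPM in U87 sensitive and 18.2% to 19.8% in U87 resistant libraries.

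VEGFC (ENSG00000150630), the main growth factor of lymphatic vessels, lies on chromosome 4 (176683538 to 176792727, minus strand). It was at 214, 205 and 229 TPM in U118 sensitive and 47.3, 43.7 and 46.8 TPM in U118 resistant libraries. The groups were widely apart with little spread inside either, and replicate 1 of the resistant cells was like the other two. VEGFC fell by 2.21 (SE 0.19, 95% interval -2.63 to -1.79, limma adjusted p = 1.95e-05) and was called under all alternatives, with changes of -2.25 to -1.65. In U87 it was at 18.3, 19.5 and 19.96 TPM (sensitive) and 18.8, 20.1 and 19.5 TPM (resistant). These overlap, and the change was 0.02 ± 0.10 (SE, 95% interval -0.22 to 0.25, adjusted p = 0.916). The order of the means was U118 sensitive, U118 resistant, U87 resistant and U87 sensitive, and only the U87 groups overlapped. VEGFC held 52.5% to 54.4% of the members' TPM in U118 sensitive and 16.6% to 28.8% in U118 resistant libraries.

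HGF (ENSG00000019991), hepatocyte growth factor, the ligand of MET, lies on chromosome 7 (81699008 to 81770438, minus strand). It was at 0.114, 1.06 and 0.538 TPM in U87 sensitive and 2.77, 1.63 and 2.92 TPM in U87 resistant libraries. All resistant libraries were higher, at low levels. The gene passed the filter mainly through them, so that it was called higher is weak support. HGF rose by 1.15 (SE 0.27, 95% interval 0.52 to 1.79, limma adjusted p = 0.0140). The call did not hold without U87 resistant replicate 1 (1.08, adjusted p = 0.0529), without resistant replicate 3 (1.05, 0.0543), without sensitive replicate 1 (0.93, 0.0293) or with no filter on low values (0.0515), with adjusted p-values of 0.00347 to 0.0543 over the alternatives. In U118 it was at 18.9, 15.5 and 22.6 TPM (sensitive) and 23.0, 7.57 and 7.76 TPM (resistant). Replicate 1 of the resistant cells was the highest of the 6 libraries and the other two were the lowest. The U118 change was -0.70 ± 0.40 (SE, 95% interval -1.60 to 0.20, adjusted p = 0.165), and without U118 resistant replicate 1 it was -1.19 and called (adjusted p = 0.00121, range 0.00121 to 0.594).

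**Figure D3:**
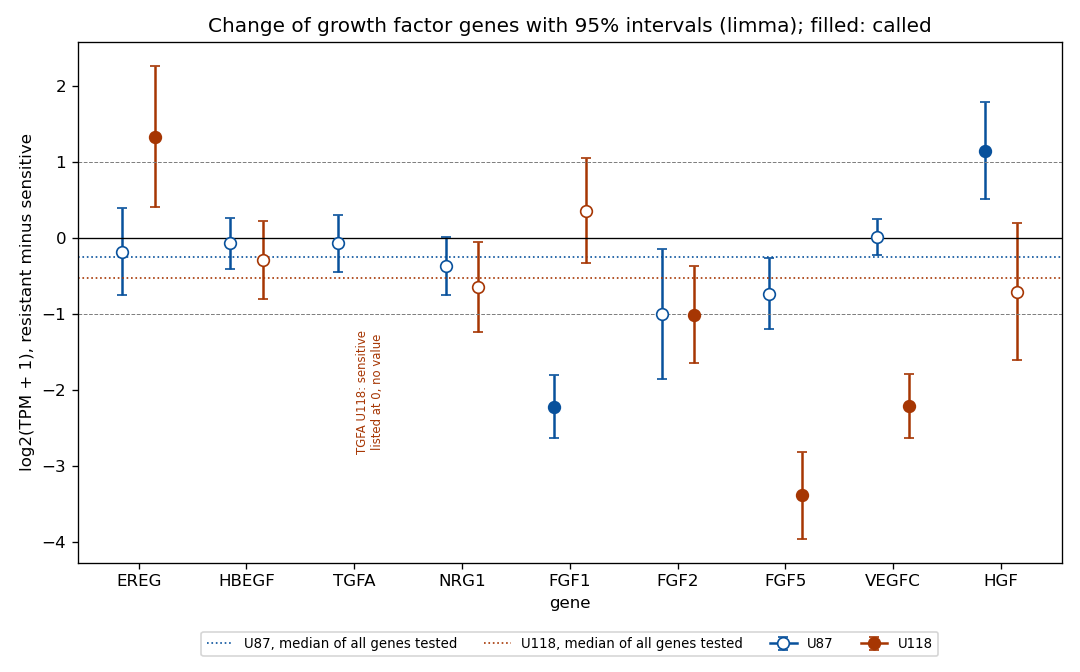
Change of log2(TPM + 1), resistant minus sensitive, with 95% intervals from limma, for U87 (blue) and U118 (brown). Filled points are called, dotted lines are the medians of all genes tested (-0.24 and -0.52), dashed lines the fold threshold. FGF5 and VEGFC lie far below the median in U118 and FGF1 in U87, and TGFA in U118 has no value because its sensitive libraries are listed at 0.

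Whether a change differed between the lines was tested as an interaction over the 12 libraries (16382 genes, of which 30.5% were called different). Of the 9 members tested, 6 were called. The U118 change minus the U87 change was -2.65 for FGF5 (adjusted p = 2.84e-05), -2.23 for VEGFC (6.09e-07) and -1.86 for HGF (0.0155). It was 2.58 for FGF1 (0.000147) and 1.52 for EREG (0.0394), and TGFA, which is at 0 in U118 sensitive libraries, was called with no value given (5.67e-05). Thus VEGFC fell in U118 and was not called in U87, and FGF1 fell in U87 and was not called in U118. The difference was -0.01 for FGF2 (95% interval -1.06 to 1.04), -0.22 for HBEGF and -0.29 for NRG1, none of them called. For EREG, the call did not hold without U118 sensitive replicate 1 or 2, U87 resistant replicate 1, 2 or 3 or U87 sensitive replicate 2 or 3, where the difference was 1.28 to 1.55 and the adjusted p 0.0651 to 0.0836, within a range of 0.00205 to 0.0922 over the alternatives. The values of the libraries labelled U118 resistant were also set against U87 sensitive cells. In this comparison 7 members were separate from them (EREG, HBEGF, TGFA, NRG1, FGF1, VEGFC and HGF), as were 41.5% of 14263 genes at 1 TPM in at least 3 of these 6 libraries, while FGF2 and FGF5 overlapped.

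For each member the 3 genes with the most similar pattern were found by Pearson's r of log2(TPM + 1) over the 12 libraries, among 16253 genes. The libraries fall into groups by line and state and share their group, so r describes the group levels and carries no p. FGF5 was closest to THBD (0.994), PCDH7 (0.993) and ITGA4 (0.993), and VEGFC to CYP1A1 (0.996) and ZFYVE28 (0.994). TGFA was closest to VWA5A (0.990), CAV2 (0.983) and NOL4L (0.983), and EREG to ZNF697 (0.984), LACTB (0.975) and HLA-DPA1 (0.970). FGF1 was closest to MYORG (0.970), SHMT1 (0.965) and ACBD6 (0.963), FGF2 to LUC7L2 (0.986), LARP1B (0.985) and CUL4B (0.984), and HGF to EFNB2 (0.987), LINC02454 (0.987) and KLHL13 (0.986). NRG1 was closest to ISM1 (0.991), DPH5 (0.988) and AHRR (0.986). HBEGF was closest to genes such as MRS2 (0.995) and SSX1 (0.994), which averaged at most 0.184 TPM in the U87 groups and 8.03 to 14.3 TPM in both U118 groups.

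The other genes of the pathway were taken from 5 lists of 97 genes. Of those called, FGFBP1 in U87 and KDR, SDC3, GPC4 and IER3 in U118 were under 1 TPM in all libraries of their lower group and so passed the filter only through the higher group. They are in the counts, their calls support nothing, and only their levels are given. The counts of each list stand beside all genes tested, of which 3.03% rose and 7.79% fell in U87. In U118, 8.64% of all genes rose and 26.6% fell. Of 26 other ligands of these families, 6 were tested in each line, and 0 were called in U87. In U118, 1 fell, PGF (placental growth factor, a ligand of FLT1), from 30.2, 26.6 and 18.3 TPM to 1.90, 1.36 and 1.12 TPM (change -3.39 ± 0.27, SE, adjusted p = 1.37e-05). All its resistant libraries were far below all sensitive libraries. Without U118 resistant replicate 1, 3 of the 6 fell, in a setting where more of all genes fell too, as given above. The median of the 6 lay -0.30 from the all-gene median in U87 and 0.03 above it in U118.

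Of 16 receptors, 8 were tested in U87, where 1 rose and 0 fell, and 9 in U118, where 1 rose and 5 fell. The shares of all genes were 3.03% and 7.79% in U87 and 8.64% and 26.6% in U118. NRP2, a co-receptor of VEGFC, rose in both lines. It was at 51.8, 44.5 and 53.9 TPM in U87 sensitive and 113, 91.9 and 106 TPM in U87 resistant libraries (change 1.04 ± 0.11, SE, adjusted p = 0.000701). In U118 it was at 14.95, 13.3 and 22.7 TPM against 95.4, 107 and 112 TPM (2.59 ± 0.24, SE, adjusted p = 3.79e-05). No library of the sensitive groups reached the level of a resistant one in either line. The U87 change was under the fold threshold without U87 resistant replicate 1 (0.97) and without U87 sensitive replicate 2 (0.955). ERBB2, the ligand-less partner of the EGF receptors, was at 36.8, 46.0 and 32.8 TPM in U118 sensitive and 2.44, 1.05 and 1.43 TPM in U118 resistant libraries and fell by 3.92 (SE 0.27, adjusted p = 6.67e-06). FGFRL1, an FGF-binding receptor that lacks the kinase domain, fell by 3.83 in U118 (SE 0.24, adjusted p = 3.83e-06). Both were far apart between the groups.

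EGFR, the receptor of EREG, TGFA and HBEGF, was at 71.4, 68.0 and 79.7 TPM in U118 sensitive and 26.9, 29.8 and 24.3 TPM in U118 resistant libraries (change -1.40 ± 0.20, SE, adjusted p = 0.000489). MET, the receptor of HGF, was at 142, 124 and 134 TPM against 61.3, 48.6 and 52.2 TPM (-1.29 ± 0.20, SE, adjusted p = 0.000748). KDR (VEGFR2) was at 1.08 to 1.51 TPM in U118 sensitive and at most 0.0820 TPM in U118 resistant libraries. Under median-ratio scaling EGFR (-0.855, adjusted p = 0.0174) and MET (-0.733, adjusted p = 0.0106) were under the fold threshold but past that on the adjusted p. With this scaling 2 receptors fell in place of 5. The 5 include KDR, which passed the filter only through the sensitive libraries and is no support for the count. In U87, EGFR was at 23.2, 28.1 and 25.3 TPM (sensitive) and 25.9, 16.4 and 19.0 TPM (resistant), which overlap (-0.33, adjusted p = 0.185). MET in U87 was at 54.2, 76.7 and 58.4 TPM against 39.6, 28.8 and 34.4 TPM, without overlap, and its change of -0.86 (adjusted p = 0.00717) and that of KDR (-0.89, adjusted p = 0.00288) were under the fold threshold. FGFR1, a receptor of FGF1 and FGF2, was at 127 to 186 TPM in U87 and 86.0 to 140 TPM in U118 libraries. The median of the receptors lay -0.07 from the all-gene median in U87 and -0.55 from it in U118.

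Of 19 genes that release or activate the ligands or hold them back, 11 were tested in each line. In U87, 1 rose and 0 fell, beside 3.03% and 7.79% of all genes. PLAU, urokinase, a protease that can activate HGF, rose from 399, 377 and 376 TPM to 752, 819 and 889 TPM (1.09 ± 0.08, SE, adjusted p = 0.000136). In U118, 1 rose and 5 fell, beside 8.64% and 26.6% of all genes. RHBDF2, a partner that carries the ligand sheddase ADAM17 to the surface, rose (2.18, adjusted p = 0.000104), while its relative RHBDF1 fell (-1.72, adjusted p = 0.000578). ADAM17 itself was at 31.2, 30.7 and 42.4 TPM against 17.2, 10.2 and 10.2 TPM and fell by 1.42 (SE 0.27, adjusted p = 0.00236), and by 0.893 under median-ratio scaling, which is under the fold threshold. SPINT2, an inhibitor of the proteases that activate HGF, was at 31.4, 28.99 and 23.5 TPM against 1.95, 0.642 and 1.11 TPM (-3.73 ± 0.28, SE, adjusted p = 9.76e-06). The list's median lay 0.20 above the all-gene median in U87 and -0.21 from it in U118.

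Of 15 heparan sulfate carriers and FGF-binding proteins, 10 were tested in U87, where 3 rose and 2 fell, and 11 in U118, where 1 rose and 6 fell. The shares of all genes were 3.03% and 7.79% in U87 and 8.64% and 26.6% in U118. SDC2 and GPC6, heparan sulfate carriers of the cell surface, went in opposite directions in the lines. SDC2 was at 2.95, 4.51 and 3.14 TPM in U87 sensitive and 23.0, 23.2 and 25.6 TPM in U87 resistant libraries (2.47 ± 0.17, SE, adjusted p = 0.000122). In U118 it was at 46.3, 110 and 123 TPM against 14.0, 9.59 and 11.05 TPM (-2.80 ± 0.36, SE, adjusted p = 0.000287). The groups did not overlap in either line, and the difference between the lines was called (-5.28, adjusted p = 1.15e-06). GPC6 rose by 1.69 in U87 (adjusted p = 0.00143) and fell by 1.80 in U118 (adjusted p = 0.000198), with a called difference of -3.49. HSPG2 (perlecan, of the basement membrane) rose in U87 (1.43, adjusted p = 0.00115) and fell in U118 (-1.04, adjusted p = 0.00829), the latter not called under median-ratio scaling (-0.529), without mitochondrially encoded genes (-0.873), without U118 resistant replicate 3 (-0.892) or without U118 sensitive replicate 2 (-0.946). FGFBP1, which frees FGFs from the matrix, was at 2.59, 2.12 and 2.04 TPM in U87 sensitive and at 0, 0.143 and 0 TPM in U87 resistant libraries. SDC1 fell in U87 by 1.02 (adjusted p = 0.000940), close to the fold threshold, and it was under it with median-ratio scaling (-0.758), without mitochondrially encoded genes (-0.884) and without U87 resistant replicate 1 (-0.957) or 3 (-0.988) or U87 sensitive replicate 1 (-0.959) or 2 (-0.981). SDC3 was at 0.683 to 0.923 TPM in U118 sensitive and 7.77 to 12.9 TPM in U118 resistant libraries. GPC4 was at 13.9, 16.0 and 15.8 TPM in U118 sensitive libraries and listed at 0 in all the U118 resistant and U87 libraries. The list's median lay 0.34 above the all-gene median in U87 and -0.52 from it in U118.

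Of 21 targets and feedback inhibitors of the ERK pathway, 20 were tested in each line. In U87, 2 rose and 1 fell, and in U118, 3 rose and 6 fell. The shares of all genes were 3.03% and 7.79% in U87 and 8.64% and 26.6% in U118. DUSP6, a phosphatase that switches off ERK, was at 2.01, 1.19 and 1.29 TPM in U87 sensitive and 10.1, 7.10 and 6.87 TPM in U87 resistant libraries (1.85 ± 0.21, SE, adjusted p = 0.000760). In U118 it was at 35.0, 43.5 and 50.7 TPM against 16.9, 12.3 and 13.9 TPM (-1.51 ± 0.23, SE, adjusted p = 0.000795), and under median-ratio scaling the change was -0.974, under the fold threshold. The direction thus differed between the lines (difference -3.36, adjusted p = 2.98e-06). IER3, an immediate early gene, rose in U87 from 36.0, 33.9 and 35.9 TPM to 84.0, 80.3 and 77.6 TPM (1.17, adjusted p = 0.000120). In U118 it was at 0.203, 0.173 and 0.507 TPM against 146, 269 and 246 TPM, so that the resistant libraries were above every U87 library. ETV4 and ETV5 are transcription factors induced by FGF signals. ETV5 fell in U87 (-1.16, adjusted p = 0.000620, and -0.90 under median-ratio scaling, under the fold threshold), where the change of ETV4 was -0.61 (adjusted p = 0.00351). In U118 the change of ETV5 was -0.47 (adjusted p = 0.137) and ETV4 rose (2.256, adjusted p = 8.13e-05). SPRED3, an inhibitor of the cascade, rose in U118 (1.21, adjusted p = 0.00441), while PHLDA1 (-1.91, adjusted p = 0.000145) and LRIG1, an inhibitor of EGF receptors (-1.81, adjusted p = 0.00117), fell. The list's median lay 0.12 above the all-gene median in U87 and 0.33 above it in U118.

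**Figure D4:**
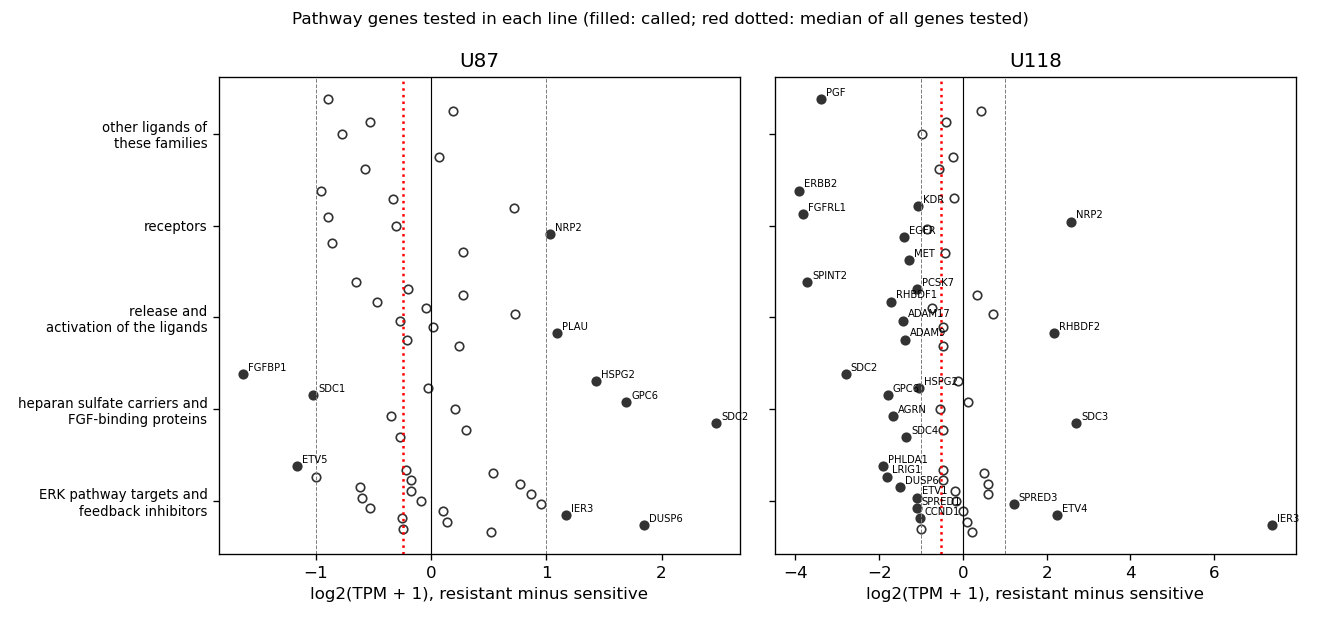
Change of log2(TPM + 1), resistant minus sensitive, of the pathway genes tested, by list (y axis) and line (panels with separate x scales). Filled, named points are called, open points are not, and the red dotted line is the all-gene median. SDC2, GPC6, HSPG2 and DUSP6 lie to the right in U87 and to the left in U118, and NRP2 to the right in both. FGFBP1 in U87 and KDR, SDC3 and IER3 in U118 are drawn, but they passed the filter only through their higher group. Their side was set by that and supports nothing. GPC4 in U118 is left out because its resistant libraries are listed at 0.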

How the data were processed

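mRNA libraries of 12 samples, 3 in each of 4 groups, were analysed. The authors deposited TPM per gene, in a table for each cell line. The submitters' processing notes name FastQC 0.11.2, Trimmomatic 0.36, HISAT2 2.0, bedtools 2.26.0 and GRCh38. The quantification tool, annotation and strand setting were not given in the sources used here. Depth is unknown because TPM holds no counts, and a library rich in mitochondrial RNA lowers all other values. Of 58174 identifiers, 57836 are in GENCODE 29, whose positions are printed.

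limma 3.58.1 (R 4.3.3, eBayes with trend) was run on log2(TPM + 1), within a line, over genes at 1 TPM or more in at least 3 of its libraries. A call needed a log2 change of at least 1 and an adjusted p (Benjamini-Hochberg, over all genes tested) under 0.05. The lines were compared with an interaction term. The fit was tested on simulated data. The members, the pathway lists and the tests were chosen with earlier results of these data known. The genes named are the members, their receptors, in each list and line the called genes that rose most and fell most, up to 3 each, and the 3 genes most like each member; a Y-linked gene, whose levels are not given here, and an unnamed gene of the latter were left out.

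Alternatives were no filter on low values, a pseudocount of 0.1, median-ratio scaling, a filter at a mean of 10 TPM, removal of mitochondrially encoded genes, no trend, no fold threshold, a replicate block and leaving out each library in turn. Leaving out a library while keeping the genes of the full set was added after seeing the data. Figures were drawn with matplotlib 3.10.9.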

Additional observations from a re-analysis of the deposited data

Results flagged for a closer look

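The change from sensitive to resistant cells differed between the lines for 6 growth factor genes, by the limma interaction term over 12 libraries, which called 30.5% of all 16382 genes. The adjusted p was 6.09e-07 for VEGFC, 2.84e-05 for FGF5, 5.67e-05 for TGFA, 0.000147 for FGF1, 0.0155 for HGF and 0.0394 for EREG. TGFA is listed at 0 in all U118 sensitive libraries and was tested in U118 only through its resistant libraries. EREG was not called when any of 7 libraries was left out (adjusted p of 0.0651 to 0.0836). VEGFC and FGF5 were lower in all 3 libraries labelled U118 resistant than in all 3 U118 sensitive libraries, FGF1 in all 3 U87 resistant libraries than in all 3 U87 sensitive libraries. The libraries labelled U118 resistant expressed 42 to 46 of 50 genes that marked U87 sensitive cells against U118 sensitive cells, and the part of this in the 6 differences was not tested.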

How the results depend on the processing

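The number of members called did not change under the replicate block (1 higher and 1 lower in U87, 2 higher and 3 lower in U118, 6 different between the lines). Same-numbered sensitive and resistant libraries deviated together with r of 0.01, -0.07 and -0.04 in U87 and 0.14, 0.05 and 0.10 in U118. Between different numbers r was -0.06 to 0.08 in U87 and -0.11 to 0.04 in U118. In U118 the same-numbered pairs thus had the highest r, all of it weak. Whether the replicate numbers pair the samples is not known. FGF1 in U87 and FGF5 and VEGFC in U118 were called under all alternatives run. With a mean of at least 10 TPM, members called were 0 higher in U87, 1 higher in U118 and 2 different between the lines, and 4 pathway genes were higher in U87, because fewer genes were tested. With no filter, 0 members were higher in U87 and 1 in U118, and 5 pathway genes were lower in U87. A pseudocount of 0.1 gave 2 members and 6 pathway genes lower in U87. With no fold threshold there were 2 members lower and 14 pathway genes higher and 13 lower in U87. Median-ratio scaling gave 1 pathway gene lower in U87 and 11 in U118, beside 3 and 23. Leaving out each library in turn, whichever genes were kept, gave 0 to 1 members higher and 1 to 2 lower in U87, 0 to 2 higher in U118 and 1 to 5 pathway genes lower in U87. TGFA in U118 could not be tested without a resistant library when the filter was applied again, since only those libraries reach 1 TPM.

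Some genes that were not called changed sign. Under median-ratio scaling the changes in U87 were 0.031 for EREG, 0.17 for HBEGF, 0.14 for TGFA, 0.026 for ADAM17 and 0.20 for RHBDF1, those in U118 were 0.26 for HBEGF, 0.078 for ETV5, 0.33 for FGFR1, 0.12 for NRP1 and 0.44 for SDC1, and the differences between the lines were 0.043 for HBEGF and 0.25 for FGF2. Without mitochondrially encoded genes they were 0.057 for HBEGF, 0.045 for TGFA and 0.085 for RHBDF1 in U87, 0.085 for SDC1 in U118 and 0.063 for the difference of FGF2, which was 0.035 with a pseudocount of 0.1. With a library left out, the ranges in U87 were -0.40 to 0.054 for EREG, -0.14 to 0.0024 for HBEGF, -0.13 to 0.022 for TGFA, -0.019 to 0.041 for VEGFC, -0.32 to 0.023 for ADAM17, -0.26 to 0.14 for RHBDF1 and -0.049 to 0.27 for SPRED3, and the difference of FGF2 ran from -0.42 to 0.26. The cause of these changes was not tested. The depth of the libraries is unknown, and low members such as HGF in U87 are limited by it.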
